A study of Mus musculus with 4 samples.

Results

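The comparison set 1 library labelled KO against 1 library labelled WT, both from mouse bone marrow-derived macrophages after 24 h of interleukin-4 (IL-4). Its members were the genes with at least 5 CPM (counts scaled by the library total) in at least 1 of these 2 libraries. By this rule 9395 of the 14936 genes in the deposited table were members. The macrophages were grown from bone marrow in medium with recombinant mouse M-CSF at 20 ng/ml, and IL-4 was also given at 20 ng/ml. The KO label stands for Phlpp1 deficiency and the WT label for wild type. How the deficiency was made, in which cells it acts, the strain, sex, age and number of mice, and whether animals were pooled are not stated in the labels. The series also held 1 library of each label after 12 h of IL-4, used here as background. With 1 library per label and time no test was possible, and no difference below has a replicate check.

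IL-4 binds a receptor that activates the transcription factor STAT6, and macrophages then make the products of alternative activation, among them arginase, chitinase-like and resistin-like proteins and C-type lectins. PHLPP1 dephosphorylates the kinase AKT, which lowers its activity, and acts on some other kinases. AKT lies downstream of the IL-4 receptor through insulin receptor substrate proteins and PI3-kinase, and it restrains the FoxO transcription factors.

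The library labelled KO held 36707999 counts and that labelled WT 37155457 counts. Macrophage transcripts were abundant in both: the 22 macrophage identity genes, all of them members, took 2.94% of the counts in the library labelled KO and 3.39% in that labelled WT. Psap, the precursor of lysosomal activator proteins, was the most abundant gene in the library labelled KO and the lysosomal protease Ctsd in that labelled WT. At these depths 3 counts, taken as the upper limit for a count of 0, equal 0.0817 CPM in the library labelled KO and 0.0807 CPM in that labelled WT. In bulk RNA, fewer cells of a type and less RNA per cell cannot be told apart.

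Phlpp1 (chromosome 1, 106171752 to 106394250 on GRCm38) went against the labels. It had 2333 counts (63.6 CPM) in the library labelled KO and 564 counts (15.2 CPM) in the library labelled WT. The CPM ratio, given throughout as the library labelled KO over that labelled WT, was 4.19, with an exact 95% counting interval of 3.82 to 4.60. Its paralog Phlpp2 stood at 10.6 CPM in the library labelled KO and 11.1 CPM in that labelled WT, a ratio of 0.958 (0.832 to 1.10). Counts per gene do not show whether an exon is missing. Directions below follow the labels, and the counts do not tell in which library PHLPP1 protein was missing.

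Most genes stood at close levels in both libraries. On the log2 scale, with 1 CPM added to each level, the median difference of the members was 0.05, 5650 of them (60.1%) were above 0, and the central 90% of members lay between -0.34 and 0.46. The ratio was within 1.2-fold for 7104 members (75.6%). A rule of size at 2-fold on that scale was passed by 75 members (0.798%): 47 (0.5%) were at least 2-fold higher in the library labelled KO and 28 (0.298%) at least 2-fold lower. Counting error alone left 38 of the 47 ratios with an interval wholly above 2-fold and 24 of the 28 with one wholly below it. The share past the rule was larger at low levels. Among 1381 members with a mean under 10 CPM, 1.38% were higher and 0.941% lower. Between 50 and 500 CPM, 0.204% of 3426 members were higher and 0.0876% lower. Above 500 CPM the rule took 1 of 252 members, the macrophage metalloelastase gene Mmp12.

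**Figure D1:**
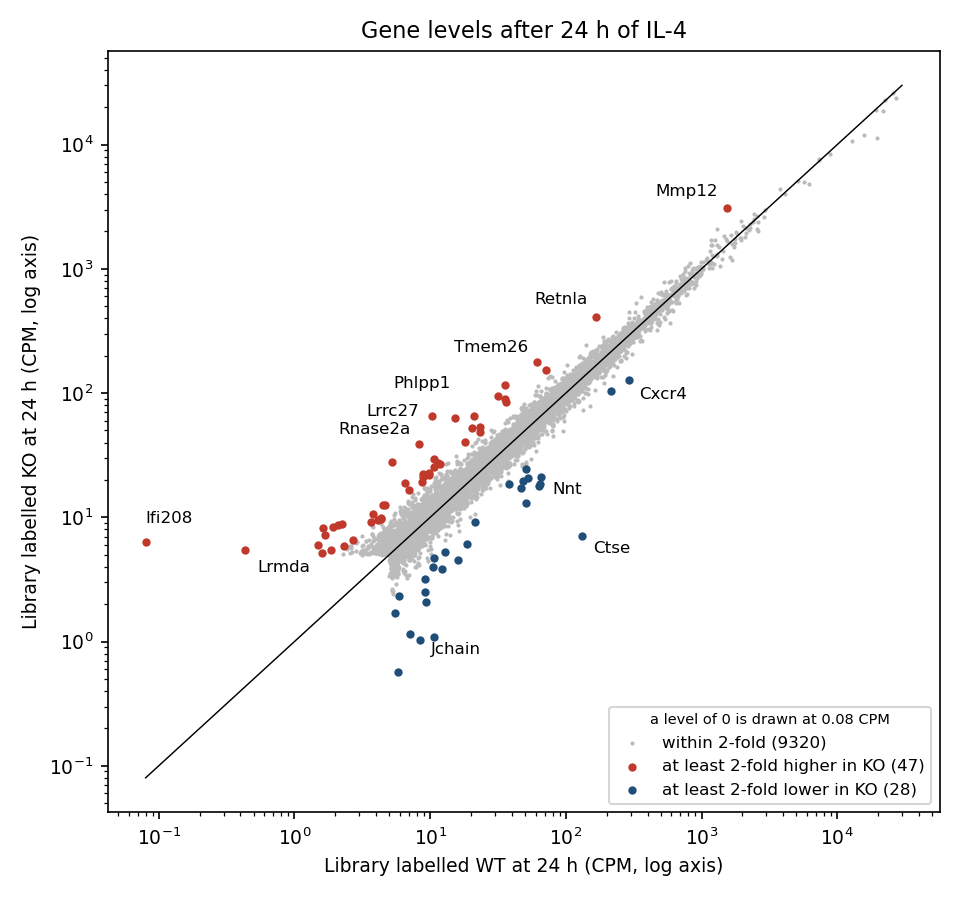
Level of each of the 9395 members in the library labelled KO (vertical, CPM, log axis) against that labelled WT (horizontal, CPM, log axis) after 24 h of IL-4, with the diagonal marking equal levels. With 1 CPM added to each level, the 47 members at least 2-fold higher in the library labelled KO are red and the 28 at least 2-fold lower are blue. Some genes 2-fold apart in plain CPM are therefore not coloured. Most coloured genes lie at low levels, with Mmp12, Retnla, Tmem26 and Cxcr4 among the exceptions.

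The lines that chose genes fell in a continuous range of values. Arg2 and Arsg, at 5.01 CPM in the library labelled WT, lay just above the minimum, and Gpr35, at 4.99 CPM in the library labelled KO, was just left out. Ocstamp (log2 1.0043) and Mmp12 (1.01) passed the 2-fold rule, while Fat1 (0.9985) and Atad5 (0.9798) did not. On the lower side Ptgfrn (-1.0042) and 4833420G17Rik (-1.0151) passed, and Gpr162 (-0.9976) and Cib2 (-0.9852) did not.

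Several genes with the highest ratios encode secreted or surface proteins. Rbp4, the retinol carrier of plasma, had 27.7 CPM in the library labelled KO against 5.19 CPM in that labelled WT, a ratio of 5.32 (4.56 to 6.24). Rnase2a, an eosinophil-associated ribonuclease, had 38.9 CPM against 8.26 CPM in WT, a ratio of 4.71 (4.16 to 5.35). Summed with the related gene Ear2, whose reads the counting could share, the ratio was 1.68 (1.60 to 1.77), below the 2-fold line. Il1rl1, the IL-33 receptor chain ST2, had 8.23 CPM in the library labelled KO against 1.61 CPM in WT. The transcript of this receptor chain was thus 5.09-fold (3.85 to 6.84) higher in the library labelled KO and below the 5 CPM minimum in that labelled WT. Lrrc32, the GARP protein that holds latent TGF-beta at the cell surface, stood at 29.7 CPM in the library labelled KO and 10.7 CPM in that labelled WT. Tmem26, a membrane protein gene, reached 177 CPM in the library labelled KO against 61.4 CPM in WT. Plxdc2 had 95.05 CPM in the library labelled KO against 31.8 CPM in WT, and Emp2, a tetraspan membrane protein gene, 8.72 CPM against 2.10 CPM in WT. Among the genes of this paragraph the ratios ran from 2.77 for Lrrc32 to 5.32 for Rbp4.

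Enzyme, cell-cycle and less characterized genes made up the rest of the highest 20. Hgsnat, a lysosomal acetyltransferase of heparan sulfate breakdown, had 117 CPM in the library labelled KO and 35.6 CPM in that labelled WT (ratio 3.29). Mcm6, a subunit of the replicative helicase, had 65.8 CPM in the library labelled KO and 21.0 CPM in that labelled WT (ratio 3.12). Ccnd1, the cyclin D1 gene of G1 progression, had 90.4 CPM in the library labelled KO and 35.5 CPM in that labelled WT (ratio 2.55). Both cell-cycle genes were well above the minimum level in each library. Lrrc27 was at 65.5 CPM in the library labelled KO against 10.3 CPM in WT, a ratio of 6.34. Lrmda was at 5.50 CPM (202 counts) in the library labelled KO against 0.431 CPM (16 counts) in that labelled WT. Ifi208, a member of the interferon-inducible HIN-200 family, had 233 counts (6.35 CPM) in the library labelled KO and 0 in that labelled WT, so it was at least 78.6-fold higher against a limit of 3 counts. Tex9, Tmem254a, Gm14410 and Eif3j2 had between 5.94 and 18.9 CPM in the library labelled KO and between 1.48 and 6.57 CPM in that labelled WT. Eif3j2 has a near-identical copy, and summed over both copies the ratio was 1.52 (1.42 to 1.62), below the 2-fold line, so its own value is uncertain.

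Among the 28 lower genes, Ctse, the aspartic protease cathepsin E of endosomes, stood apart. It had 258 counts (7.03 CPM) in the library labelled KO against 4907 counts (132 CPM) in that labelled WT, a ratio of 0.0532 (0.0468 to 0.0603). Of the genes past the rule with at least 100 CPM in either library, none had a ratio farther from 1. Cers4, a ceramide synthase gene, was at 1.09 CPM in the library labelled KO and 10.7 CPM in that labelled WT. Wdfy1, which encodes an endosomal adaptor protein, was at 13.1 CPM in the library labelled KO and 50.7 CPM in that labelled WT. Itgad, the integrin alpha D chain of myeloid cells, was at 18.4 CPM in the library labelled KO against 64.9 CPM in WT. Its ratio was 0.283 (0.260 to 0.309). Other surface receptor genes were lower as well: Colec12, a scavenger receptor with a lectin domain, had 19.5 CPM in the library labelled KO against 48.3 CPM in WT. Fpr1, a formyl peptide receptor, had 4.005 CPM in the library labelled KO against 10.5 CPM in WT. C4b, the complement C4 gene, had 2.51 CPM in the library labelled KO against 9.18 CPM in WT. F13a1, the coagulation factor XIII A chain and a known IL-4 target, had 6.05 CPM in the library labelled KO against 18.8 CPM in WT. F13a1 thus lay on the other side of the 2-fold line from the IL-4 targets Retnla and Mgl2.

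Metabolic genes also appeared among the lower 20. Nnt, the mitochondrial transhydrogenase gene, part of which is deleted in the C57BL/6J substrain, had 21.2 CPM in the library labelled KO and 66.2 CPM in that labelled WT (ratio 0.320, 0.295 to 0.347). The labels give no substrain. Slc13a3, a dicarboxylate transporter gene, had 17.2 CPM in the library labelled KO and 46.8 CPM in that labelled WT. Camk2b, a calcium-dependent kinase gene, had 3.84 CPM in the library labelled KO and 12.2 CPM in that labelled WT. The remaining lower genes included several with close copies, whose reads could be split by the counting. Rnaset2a, a lysosomal ribonuclease gene, had 17.8 CPM in the library labelled KO and 63.9 CPM in that labelled WT. Its copy Rnaset2b had 18.7 CPM in the library labelled KO and 17.5 CPM in that labelled WT, and the sum of both had a ratio of 0.448 (0.420 to 0.478). Cd209f and Cd209g, C-type lectin genes of the DC-SIGN cluster, had a summed ratio of 0.133 (0.101 to 0.174), at 1.72 CPM in the library labelled KO and 12.9 CPM in that labelled WT. Pira1, Dynlt1b and Sirpb1a, summed with their copies, had ratios of 0.673, 0.634 and 0.611, so none of these 3 families reached 2-fold.

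**Figure D2:**
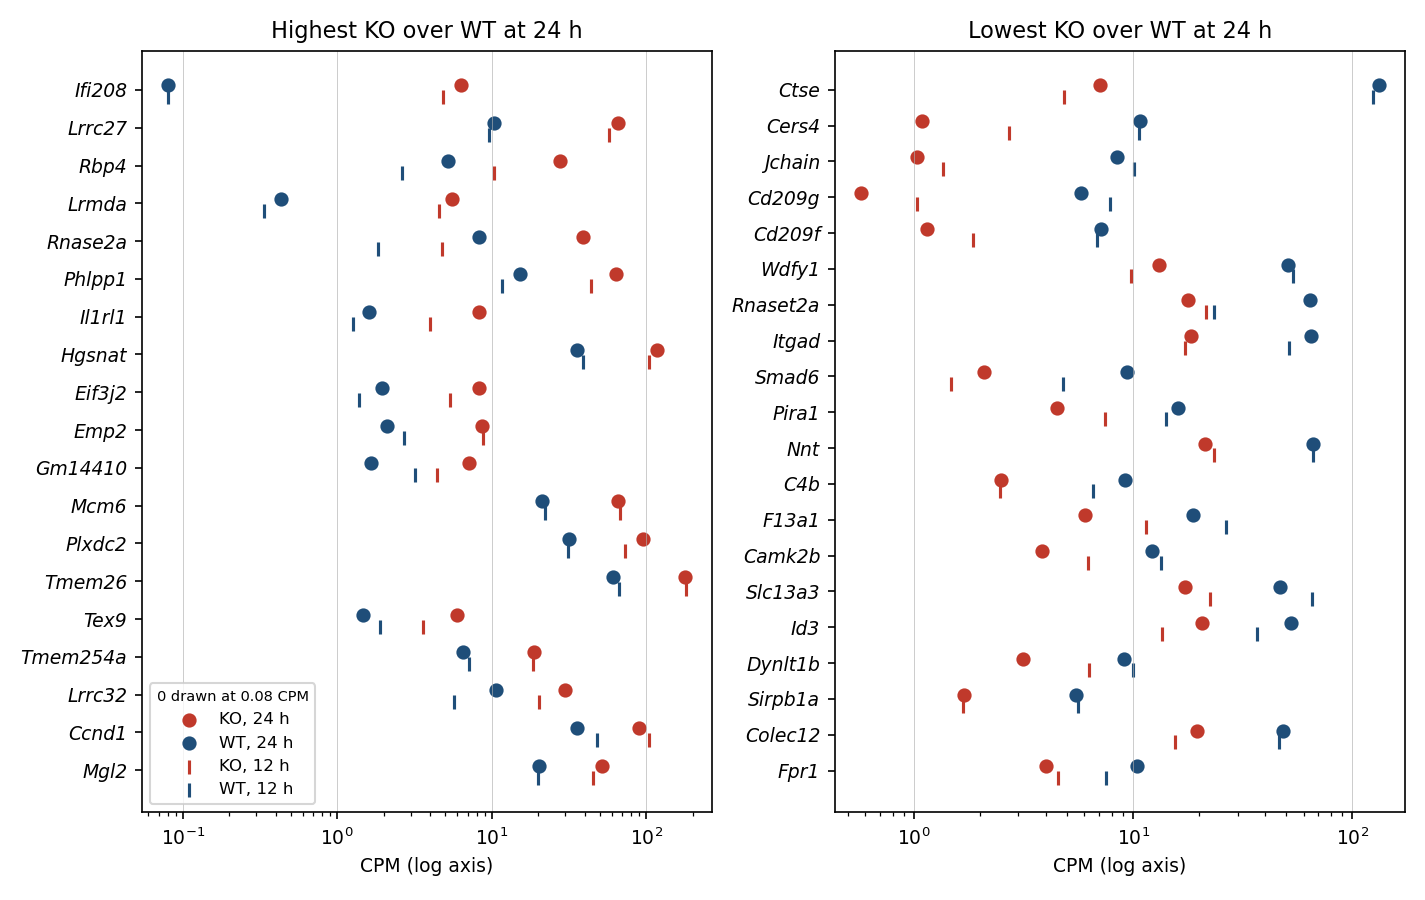
Level (CPM, log axis) of the named genes with the highest (left) and lowest (right) KO over WT difference at 24 h; circles are the 24 h libraries and short bars the 12 h libraries, red for KO and blue for WT. For Ifi208 both WT libraries had 0 counts and are drawn at the left edge; Ctse stands at 7.03 CPM in the library labelled KO and 132 CPM in WT at 24 h, and for Rnaset2a the 12 h bars nearly meet.

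Genes listed for the IL-4 response were on balance higher in the library labelled KO. Every library of the series received IL-4, so whether these levels already differed before IL-4 cannot be told. Of the 51 genes listed, 40 were members; 3 of them passed the 2-fold rule upward and 1 downward, against 0.5% and 0.298% of all members, and 32 of 40 differences were above 0, beside 60.1% of all members. Their median difference was 0.38 on the log2 scale, beside 0.05 over all members, and 0.32 when the libraries were scaled by TMM. The list was chosen with earlier results of these data known, and no test stands behind this statement.

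The genes of this list differed by role. Receptor and signalling genes had a median of 0.11 over 10 members. Stat6, the transducer itself, stood at 283 CPM in the library labelled KO and 286 CPM in that labelled WT. Il4ra, the receptor chain, stood at 67.2 CPM in the library labelled KO and 81.5 CPM in that labelled WT, a ratio of 0.825 (0.782 to 0.870). Cish, a STAT-induced feedback inhibitor of cytokine receptors, was the exception among signalling genes, with 14.4 CPM in the library labelled KO and 7.78 CPM in that labelled WT. Transcription factors had a median of 0.46 over 11 members. Irf4, which takes part in alternative activation, had 23.8 CPM in the library labelled KO and 13.3 CPM in that labelled WT. Klf4 had 19.6 CPM in the library labelled KO and 11.5 CPM in that labelled WT, Myc 40.9 CPM against 24.0 CPM in WT. Pparg, the lipid-sensing nuclear receptor, was at 224 CPM in the library labelled KO and 169 CPM in that labelled WT. None of the 11 factors passed the 2-fold rule.

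Effector genes showed the wider differences. Retnla, the resistin-like protein RELM-alpha, had 412 CPM in the library labelled KO against 167 CPM in that labelled WT, a ratio of 2.46 (2.39 to 2.54). Chil3, the chitinase-like protein Ym1, had 2095 CPM in the library labelled KO against 1290 CPM in that labelled WT, a ratio of 1.62 (1.61 to 1.64). Per length, Chil3 was the more abundant of both genes, at 1361 FPKM in the library labelled KO and 838 FPKM in that labelled WT. Retnla was at 762 FPKM in the library labelled KO and 309 FPKM in that labelled WT. Arg1, arginase 1, stood at 50.5 CPM in the library labelled KO and 28.1 CPM in that labelled WT, a ratio of 1.80 (1.67 to 1.94). Fn1, fibronectin, had 115 CPM in the library labelled KO and 62.0 CPM in that labelled WT. Ccl22, a chemokine that attracts T cells through CCR4, had 21.7 CPM in the library labelled KO and 12.0 CPM in that labelled WT. The 9 surface proteins all stood above 0, with a median of 0.55. Mgl2, the galactose-binding lectin CD301b, had 52.0 CPM in the library labelled KO and 20.2 CPM in that labelled WT, and its copy Clec10a 16.1 CPM in KO and 9.58 CPM in WT; their summed ratio was 2.28 (2.13 to 2.45). Pdcd1lg2, the checkpoint ligand PD-L2, had 48.2 CPM in the library labelled KO and 23.3 CPM in that labelled WT, a ratio of 2.07 (1.91 to 2.25), which fell short of the 2-fold rule under TMM scaling (log2 0.96). Mrc1, the mannose receptor, had 1114 CPM in the library labelled KO and 824 CPM in that labelled WT, and Clec7a, the beta-glucan receptor dectin-1, 1841 CPM in KO and 1469 CPM in WT.

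**Figure D3:**
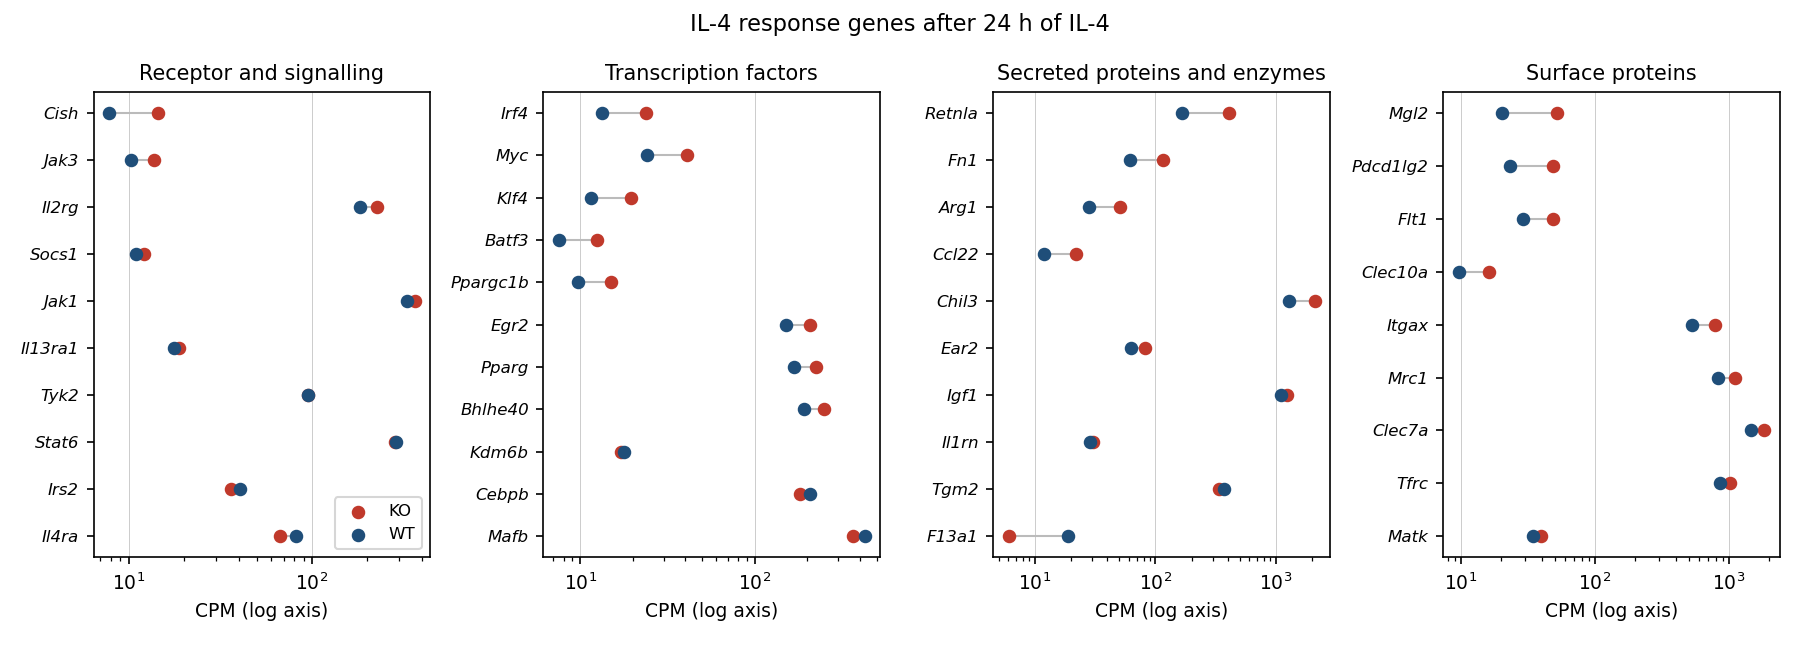
Level (CPM, log axis) of the 40 IL-4 response members after 24 h, by role, with 1 point for the library labelled KO (red) and 1 for that labelled WT (blue) joined by a line and ordered by difference. KO points lie to the right of WT points for 32 of 40 genes, Stat6 and Tyk2 nearly coincide, and F13a1 lies the other way at 6.05 CPM in KO and 18.8 CPM in WT.

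Promoter windows of genes past the 2-fold rule were searched for short elements, and that of Smad6 is printed because Smad6 is itself a target of SMAD proteins. RefSeq windows on GRCm38.p6 run from 250 bases before to 50 bases after a start site. SMAD proteins are known to bind the palindrome GTCTAGAC, which reads the same on both strands. It was in the window of 1 of 20 lower genes with a window (Smad6), of 1 of 38 higher genes (Pakap) and of 0.3% of 7679 members with a window. The element TTCNNNGAA, which STAT proteins are known to bind, was in 0 of 38 higher genes, 1 of 20 lower genes and 8.20% of members. GGCGCC was in 8, 3 and 25.4%. STAT elements with another spacing are not reported here, so these counts do not show whether STAT6 elements are present or absent. A match is a description of letters, not a site or a cause, and the absence of one says only that the letters are not in the window. The Smad6 window is chr9:64022010-64022309, minus strand, with the match in capitals.
Smad6: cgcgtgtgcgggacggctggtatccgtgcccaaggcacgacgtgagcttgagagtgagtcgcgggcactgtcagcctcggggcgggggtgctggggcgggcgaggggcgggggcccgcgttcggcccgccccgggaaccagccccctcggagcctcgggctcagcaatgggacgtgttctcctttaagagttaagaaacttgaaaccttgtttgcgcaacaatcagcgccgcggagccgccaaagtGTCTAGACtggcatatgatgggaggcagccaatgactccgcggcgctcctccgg

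The inhibitory SMAD genes Smad6 and Smad7 and the ID gene Id3 were at least 2-fold lower in the library labelled KO. Genes of these families are targets of BMP and TGF-beta signalling, SMAD6 and SMAD7 as feedback inhibitors and ID proteins as inhibitors of basic helix-loop-helix factors. Smad6 had 2.10 CPM in the library labelled KO against 9.37 CPM in that labelled WT, a ratio of 0.224 (0.173 to 0.287). Id3 had 20.6 CPM in the library labelled KO against 52.3 CPM in WT, a ratio of 0.394 (0.361 to 0.428). Smad7 had 2.32 CPM in the library labelled KO against 5.92 CPM in WT. Of 17 members of the TGF-beta and ID list, these 3 passed the rule downward and Lrrc32 upward, against 0.298% and 0.5% of all members. The list median was -0.07. With a pseudocount of 5 CPM Smad7 fell short of the rule (log2 -0.58) and Smad6 stood at -1.02. Other members, the remaining ID genes among them, did not pass: Id1 was at 6.07 CPM in the library labelled KO and 7.37 CPM in that labelled WT, Id2 was at 255 CPM in the library labelled KO and 259 CPM in that labelled WT, Tgfb1 at 557 CPM in KO and 576 CPM in WT.

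Cell-cycle genes were mostly higher in the library labelled KO. Of 31 members of the list 28 were above 0 with a median of 0.39 (0.33 under TMM), but of these members Mcm6 alone passed the 2-fold rule. Ccnd1, which passed it with a ratio of 2.55, is not on this list. All 14 mitosis genes were above 0, with a median of 0.49. Mki67, the proliferation marker Ki-67, had 49.1 CPM in the library labelled KO and 29.4 CPM in that labelled WT, a ratio of 1.67 (1.55 to 1.80). Aurka, a mitotic kinase gene, had 6.59 CPM in the library labelled KO and 3.53 CPM in that labelled WT. Top2a, topoisomerase II alpha, had 34.4 CPM in the library labelled KO and 23.2 CPM in that labelled WT. Among 17 replication genes the median was 0.28. The other helicase subunits Mcm2, Mcm3, Mcm4, Mcm5 and Mcm7 lay between -0.03 and 0.38 on the log2 scale, below the 1.60 of Mcm6. Cdt1, the replication licensing factor, went the other way with 38.8 CPM in the library labelled KO and 52.3 CPM in that labelled WT.

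Matrix and metalloproteinase genes held a few large differences around a median of 0.04. That median turned negative under TMM and median-of-ratios scaling, as did the median of all members (-0.01 under both). Mmp12 was the most abundant gene past the 2-fold rule, with 3082 CPM in the library labelled KO against 1532 CPM in that labelled WT. Its ratio was 2.01 (1.99 to 2.03), and it fell short of 2-fold under TMM scaling. Mmp13, a collagenase gene, had 53.5 CPM in the library labelled KO against 23.4 CPM in WT. Mmp14, the membrane-bound activator of MMP2, lay on the other side with 49.9 CPM in the library labelled KO and 79.7 CPM in that labelled WT. Macrophage fusion genes of the osteoclast list had higher levels too: Ocstamp stood at 9.70 CPM in the library labelled KO and 4.33 CPM in that labelled WT, and Dcstamp at 13.2 CPM in KO and 7.37 CPM in WT. Ocstamp, the only osteoclast list member past 2-fold, fell short under TMM scaling (log2 0.95) and with a pseudocount of 5 CPM (0.66). The osteoclast effector genes Acp5 and Ctsk differed by 0.04 and 0.05 on the log2 scale, and the median over 10 members was 0.24.

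Chemokine genes were spread to both sides, with a median of -0.07 over 17 members. Cxcr4, the receptor of CXCL12, was the only one past the rule, with 127 CPM in the library labelled KO and 290 CPM in that labelled WT, a ratio of 0.437 (0.422 to 0.452). Ccl5, the chemokine RANTES, had 54.5 CPM in the library labelled KO and 81.0 CPM in that labelled WT. Ccl2, the monocyte attractant, had 30.9 CPM in the library labelled KO and 15.4 CPM in that labelled WT, close to the line at 0.96 on the log2 scale. Ccl6 had 594 CPM in the library labelled KO and 360 CPM in that labelled WT, a ratio of 1.65 (1.62 to 1.69). Of the 11 ligands 5 were above 0 and 6 below, with a median of -0.10.

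The type I interferon and interferon-inducible GTPase lists had no member past 2-fold; Ifi208 is on neither. The 35 type I interferon members had a median of -0.04. Ifit3, an interferon-induced antiviral gene, had 22.7 CPM in the library labelled KO and 37.5 CPM in that labelled WT. Irf7, the factor that amplifies the response, had 138 CPM in the library labelled KO and 223 CPM in that labelled WT. Ifi44 lay on the other side with 28.8 CPM in the library labelled KO and 17.9 CPM in that labelled WT. The 14 interferon-inducible GTPases had a median of 0.02, which turned to -0.03 under TMM scaling, from -0.44 for Tgtp2 to 0.66 for Gbp7. MHC class II genes, which CIITA controls, were slightly higher in the library labelled KO, with 7 of 8 members above 0 and a median of 0.20. H2-Aa had 496 CPM in the library labelled KO and 424 CPM in that labelled WT, a ratio of 1.17 (1.14 to 1.19). H2-Ab1, its partner chain, had 466 CPM in the library labelled KO and 388 CPM in that labelled WT. Ciita had 38.1 CPM in the library labelled KO and 28.2 CPM in that labelled WT. Inflammatory NF-kB genes had a median of 0.19 over 18 members, none past 2-fold, from -0.46 for Nfkbiz to 0.52 for Ptgs2.

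Genes of the pathway in which PHLPP1 acts differed little. Of 34 PI3K-AKT and PHLPP members, Phlpp1 alone passed the 2-fold rule. The 27 kinases and adaptors lay between -0.30 for Pik3ap1 and 0.38 for Prkcd, a PKC isoform gene. Akt1 stood at 299 CPM in the library labelled KO and 321 CPM in that labelled WT, and Akt2 at 97.0 CPM in KO and 98.3 CPM in WT. The list's median of 0.03 turned negative under TMM scaling. The 18 FoxO members had a median of -0.02. S1pr1, a sphingosine phosphate receptor gene, had 24.8 CPM in the library labelled KO and 36.3 CPM in that labelled WT, and Insr, the insulin receptor gene, 57.8 CPM in KO and 43.3 CPM in WT. Transcript levels do not show the phosphorylation of these kinases and factors.

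Metabolic lists stood close to the median of all members, which was 0.05 and, under TMM scaling, -0.01. Medians were 0.06 over 18 fatty acid oxidation genes, 0.01 over 33 oxidative phosphorylation genes and 0.01 over 23 cholesterol synthesis genes, all 3 turning negative under TMM scaling, and -0.02 over 25 glycolysis and hypoxia genes. Apart from Nnt, the oxidative phosphorylation members lay between -0.17 and 0.22. Lipid handling genes had a median of 0.01 that likewise turned negative under TMM scaling, with Rbp4 past the line. Apoe, the apolipoprotein of lipid efflux, took 1.13% of all counts in the library labelled KO (exact 95% interval 1.12% to 1.13%) and 1.95% in that labelled WT (1.95% to 1.96%). That is 11261 CPM against 19543 CPM in WT, a ratio of 0.576, short of the 2-fold line. Arginine and polyamine genes had a median of 0.16 over 15 members, with the arginine transporter gene Slc7a2 at 148 CPM in the library labelled KO and 96.5 CPM in that labelled WT. The serine synthesis genes Phgdh and Psat1 were 2.004-fold (1.80 to 2.24) and 1.87-fold (1.71 to 2.04) higher in the library labelled KO. Phgdh had 27.1 CPM in KO and 13.5 CPM in WT, but other targets of the stress factor ATF4 were closer, with a list median of 0.17.

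Macrophage receptor and redox genes were on balance lower in the library labelled KO. Of 15 scavenger and apoptotic cell receptor genes 3 were above 0, with a median of -0.27 (-0.34 under TMM). Stab1, a clearance receptor gene, had 365 CPM in the library labelled KO and 589 CPM in that labelled WT. Gas6, the bridging ligand of the MERTK and AXL receptors, had 190 CPM in the library labelled KO and 279 CPM in that labelled WT. Macrophage identity genes had a median of -0.22, with 3 of 22 above 0. Fcgr1, the high-affinity IgG receptor, had 78.8 CPM in the library labelled KO and 150 CPM in that labelled WT, a ratio of 0.526 (0.503 to 0.551). Csf1r, the M-CSF receptor gene, stood at a log2 difference of -0.12, while Csf2rb, the shared chain of the IL-3 and GM-CSF receptors, stood at 0.42. NRF2 targets had a median of -0.18 over 18 members, led downward by Gclm at 88.4 CPM in the library labelled KO and 122 CPM in that labelled WT. Lysosome genes had a median of -0.02 over 36 members, of which Hgsnat and Ctse passed the rule. Immediate early and heat shock genes had a median of 0.04 over 18 members, negative under TMM scaling, with Fos at 38.1 CPM in the library labelled KO and 57.8 CPM in that labelled WT.

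**Figure D4:**
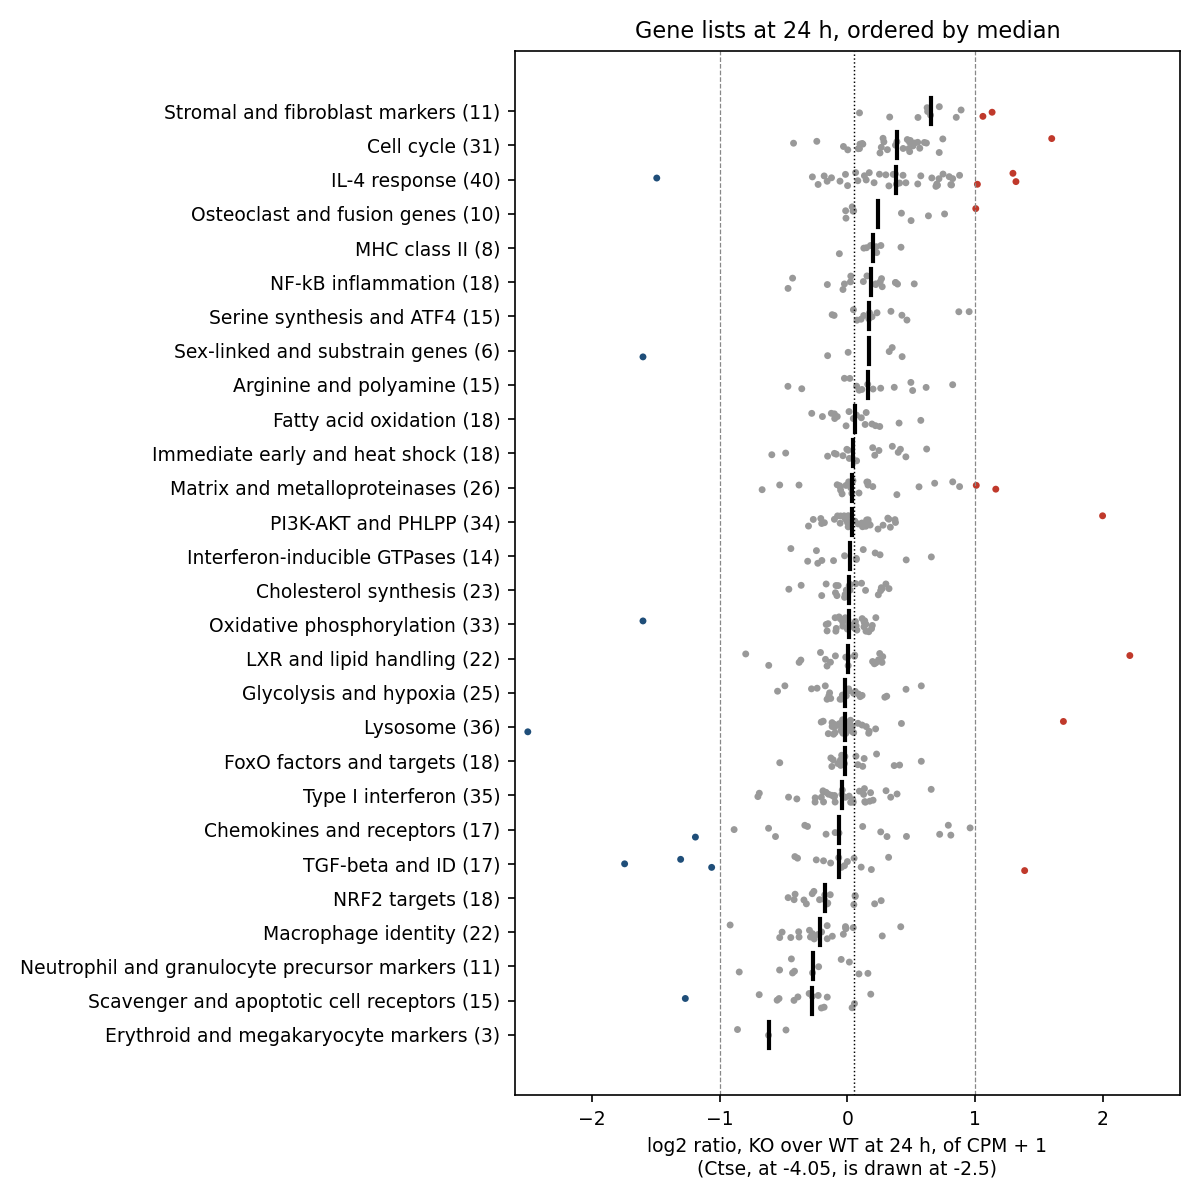
Difference between the library labelled KO and that labelled WT at 24 h (log2 ratio of CPM + 1) for each member of the lists with at least 3 members, numbers of members in brackets; black bars are list medians, the dotted line the median of all members (0.05) and the dashed lines 2-fold. Stromal markers (0.65), cell-cycle genes (0.39) and IL-4 response genes (0.38) have the highest medians, and single genes past 2-fold are red or blue.

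Markers of other cell types were present in both libraries. All 11 stromal and fibroblast members were above 0, with a median of 0.65 (0.59 under TMM), and Dcn (decorin) and Pdgfra passed 2-fold. The 16 stromal genes in the table summed to 240 CPM in the library labelled KO and 143 CPM in that labelled WT, with none at 0. Dcn had 27.0 CPM in the library labelled KO and 11.8 CPM in that labelled WT, and the collagen gene Col1a2 had 30.02 CPM in KO and 18.8 CPM in WT. Fn1, Mmp13, Prrx1 and Kitl, which stromal cells can also express, were higher in the same library. These genes are not on the stromal list and were put together after their values were seen. The matrix and metalloproteinase list went both ways, with 17 members above 0 and 9 below, Mmp14 among the lower. Granulocyte markers were lower: the 16 genes in the table summed to 930 CPM in the library labelled KO and 1172 CPM in that labelled WT, with Ly6g at 1 count in KO and 0 in WT. Lymphocyte markers summed to 30.9 CPM in the library labelled KO and 49.7 CPM in that labelled WT. Cd3e had 0 counts in the library labelled KO and 13 in that labelled WT. Jchain, the immunoglobulin joining chain of plasma cells, had 1.04 CPM in the library labelled KO and 8.42 CPM in that labelled WT. Erythroid and megakaryocyte markers summed to 67.2 CPM in the library labelled KO and 111 CPM in that labelled WT, with the globin gene Hbb-bs at 0 in both. Mast cell, basophil and eosinophil markers summed to 37.0 CPM in the library labelled KO and 39.3 CPM in that labelled WT, with Fcer1a at 0 counts in KO and 10 in WT. Dendritic cell markers summed to 19.1 CPM in the library labelled KO and 12.1 CPM in that labelled WT, with Siglech at 1 count in KO and 0 in WT. The part of these cells in the differences above was not tested.

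Position was read for 73 of the 75 genes past the rule. Chromosome 1, which carries Phlpp1, held 10 of them among 532 members (1.88%), beside 0.798% over all chromosomes. They were Phlpp1, Ifi208, Il1rl1, Mcm6, Ephx1 and Prrx1 on the higher side and Ctse, Wdfy1, Cxcr4 and Steap3 on the lower side. Of these, 4 lie in 1 stretch beyond Phlpp1: Steap3 at 120190757 to 120272705, Mcm6 at 128331590 to 128359664, Cxcr4 at 128588199 to 128592293 and Ctse at 131638306 to 131675505. The stretch was drawn after these genes were seen, and the other members in it were not counted. Chromosomes 16, 18 and 10 had 1.37%, 1.37% and 1.33% of their members past the rule. Mcm6 was higher and its near neighbour Cxcr4 lower in the library labelled KO. The Y chromosome genes Ddx3y, Eif2s3y, Kdm5d and Uty were members in both libraries, between 29.1 and 56.2 CPM in the library labelled KO and between 22.6 and 41.5 CPM in that labelled WT.

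The 12 h libraries, which share no library with the 24 h pair, served as background. By the same rules 45 of 9390 genes (0.479%) were at least 2-fold higher at 12 h in the library labelled KO and 32 (0.341%) lower. All 47 genes higher at 24 h were above 0 at 12 h and all 28 lower genes below 0. The share of all members that kept their side of 0 was not counted. Genotype, animal and culture cannot be told apart in either pair, and the labels do not say whether both times came from the same animals. Of the 47, 18 also passed the rule at 12 h (38.3% of the 24 h list and 40% of the 12 h list), and of the 28, 20 did (71.4% and 62.5%). The 47 had a median of 1.27 at 24 h and 1.01 at 12 h, and 44 of them were farther from 0 at 24 h, the time at which they were chosen. For the 28 the medians were -1.42 at 24 h and -1.21 at 12 h, with 16 farther from 0 at 24 h. Across the 9395 members the differences at both times had a Pearson correlation of 0.60 and a Spearman correlation of 0.40, a description across genes that are not independent.

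Some genes were set apart mainly at 24 h. Rnaset2a had a ratio of 0.913 at 12 h, with 21.4 CPM in the library labelled KO and 23.5 CPM in that labelled WT, beside 0.278 at 24 h. Summed with Rnaset2b the ratio was 1.13 (1.06 to 1.21) at 12 h, above 1, beside 0.448 at 24 h. Rnase2a had 4.74 CPM (KO label) and 1.84 CPM (WT label) at 12 h, so both labels were higher at 24 h and the log2 difference was 1.01 at 12 h beside 2.11 at 24 h. Summed with Ear2 it was 0.29 at 12 h beside 0.74 at 24 h. Gm14410 and Cep290, a ciliary gene, differed by 0.37 and 0.11 at 12 h beside 1.61 and 1.12 at 24 h. Chil3 differed by 0.42 at 12 h and 0.70 at 24 h. Arg1 went the other way, with 1.40 at 12 h and 0.82 at 24 h. Whether these differences between times exceed replicate spread was not tested.

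**Figure D5:**
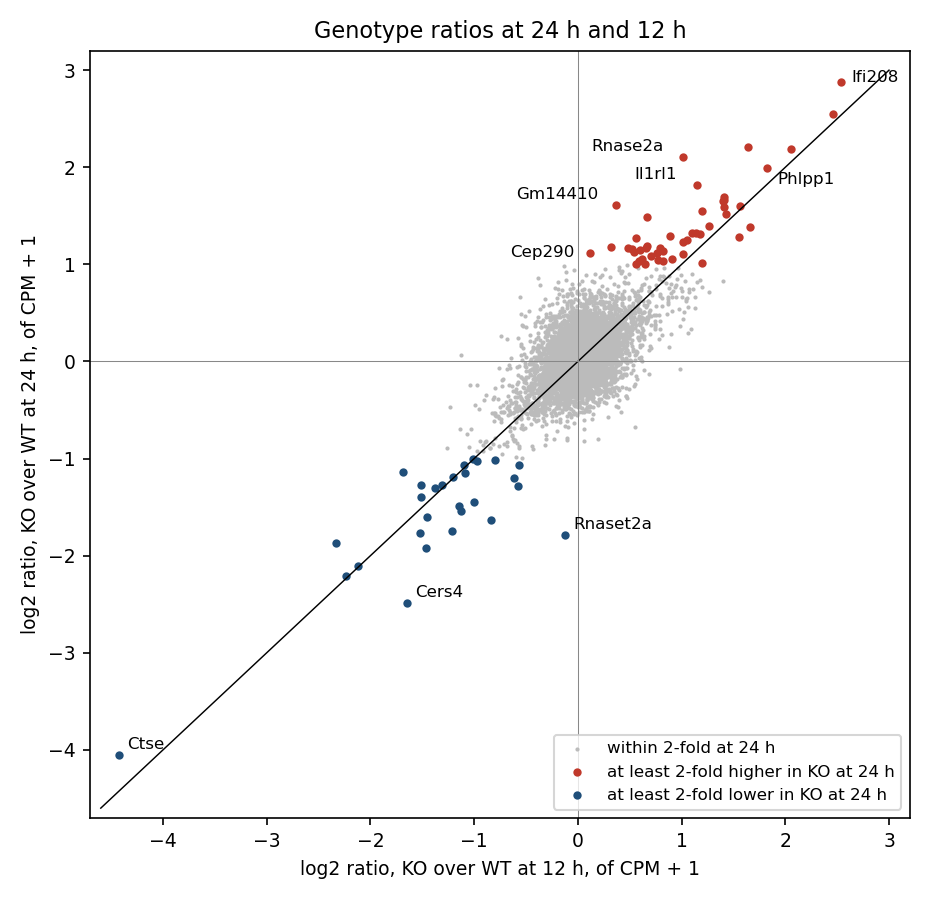
Difference between the library labelled KO and that labelled WT (log2 ratio of CPM + 1) at 24 h (vertical) against that at 12 h (horizontal) for the 9395 members, with the diagonal marking equal differences. All 75 genes past 2-fold at 24 h, in red and blue, keep their side of 0 at 12 h, with Rnaset2a (-0.13 at 12 h) and Cep290 (0.11) nearest to 0.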

How the data were processed

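Messenger RNA was sequenced, and the authors deposited, for each library, integer counts and FPKM values by gene symbol. HISAT2, StringTie 1.3.0, edgeR and mm10 are named, per the submitters' processing notes, without roles or order. Not given in the sources used here are the counting tool, the annotation release and the use of strand, so overlapping, antisense and near-identical genes are uncertain. The deposited FPKM values equalled the counts scaled by library total and a gene constant, with a largest relative deviation of 1.13e-13 over 12750 genes, and served to compare levels between genes.

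CPM was the deposited count over the library total. Differences are log2 ratios, KO over WT, with 1 CPM added, which understates low genes. Ratios without it have exact Clopper-Pearson 95% intervals of the counts. These intervals cover counting error only, since each label and time had 1 library. Reads carried no molecular identifiers, so reads copied from 1 molecule count as separate and the intervals may be too narrow. The 2-fold rule is one of size. The step was tested on simulated libraries with known folds, placed only in genes with many counts and with counting noise alone. That test did not cover folds in genes at low levels or replicate spread. Groups came from the sample labels. Alternatives used TMM (edgeR 4.0.16) and median-of-ratios (DESeq2 1.42.0) scaling in R 4.3.3, other minimum levels, pseudocounts and fold lines. Python 3.11.15, pandas 2.3.3 and SciPy 1.17.1 were used. Positions are from GENCODE on GRCm38.

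Genes were named by rule: Phlpp1 and Phlpp2, the 20 highest and 20 lowest differences, list members past 2-fold, the members of each list role with the largest 4 differences, the smallest or the highest level, genes beside each line, and the 10 past 2-fold that differed most from 12 h. The other genes named were chosen after their values were seen. Members and the 31 gene lists were chosen with earlier results of these data known. Some genes that the rule takes are not reported here.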

Additional observations from a re-analysis of the deposited data

Results flagged for a closer look

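For 19 of the 546 list members the difference between the library labelled KO and that labelled WT lay on opposite sides of 0 at 24 h and 12 h, each beyond its counting interval and by at least 0.1 on the log2 scale. The same held for 440 of all 9395 members, of which the 24 h difference was above 0 in 229 and below 0 in 211. With 1 library per label and time the difference between times was not tested, and it compares the 4 libraries, not the conditions.

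At 24 h, 16 of the 19 were higher in the library labelled KO, and at 12 h lower. Cd74, the MHC class II invariant chain, stood at 2229 CPM (KO label) and 2009 CPM (WT label) at 24 h, and at 1060 CPM in KO and 1364 CPM in WT at 12 h. Its log2 difference was 0.15 at 24 h and -0.36 at 12 h, 0.51 apart. The MHC class II chains H2-Aa and H2-Ab1 differed between times by 0.35 and 0.37. Among interferon genes, Herc6 differed by 0.46, Ifi203 by 0.47, Slfn5 by 0.39, Slfn8 by 0.40 and Trim30a by 0.39. Gvin1, a giant interferon-inducible GTPase gene, differed by 0.63, and Il1a, the interleukin-1 alpha gene, by 0.64. Pola1, a DNA polymerase subunit gene, differed by 0.51, Msr1, the scavenger receptor A gene, by 0.42 and Ccng2 by 0.39. Igf1 differed by 0.36, Pik3r1, a PI3-kinase regulatory subunit gene, by 0.32 and Il7r by 0.26. The other 3 lay the opposite way, lower at 24 h and higher at 12 h under the KO label, with 24 h minus 12 h values of -0.41 for Scarf1, -0.28 for Junb and -0.27 for Naglu.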

How the results depend on the processing

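The count of genes at least 2-fold higher in the library labelled KO was 47 as reported, 74 with a minimum of 1 CPM or no minimum, 31 with a minimum of 10 CPM, 18 with a pseudocount of 5 CPM and 258 with a line at 1.5-fold. The count of lower genes was 28 as reported, 46 with a minimum of 1 CPM or none, 15 with a pseudocount of 5 CPM and 101 at 1.5-fold. A pseudocount of 0.1 CPM gave 62 higher and 36 lower genes. TMM and median-of-ratios scaling each gave 40 higher genes, all among the 47, and 32 lower genes, 28 of them as reported. Both scalings shifted the median of all members by -0.06, to -0.01. The Phlpp1 ratio was 4.19 as reported and 3.40 with a pseudocount of 5 CPM. The share of 24 h calls on the same side of 0 at 12 h was 100% as reported, 94.2% with a minimum of 1 CPM or none and 88.6% at 1.5-fold. The Phlpp1 ratio lay between 3.40 and 4.19 under all settings tried for it. A count of genes has no direction that a setting could reverse, so the counts show only how far their size moved. Summing near-identical copies was chosen after seeing the data, as was adding 1 CPM to the Phlpp1 ratio. No paired analysis was possible because each label and time had 1 library, and no replicate could be left out. Depth limits ratios of genes near 5 CPM.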

Other observations

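The largest differences in CPM lay in abundant genes, and among them Mmp12 alone passed 2-fold. The 10 genes with the largest deficit in CPM, chosen after their values were seen, summed to 91109 CPM in the library labelled KO and 115881 CPM in that labelled WT. Apoe led them, followed by the ferritin light chain gene Ftl1, with 11865 CPM in the library labelled KO and 15841 CPM in that labelled WT. Ctsd, Fth1, Lyz2, the MHC class I gene H2-D1, Mpeg1, Spp1, Mfge8 and Lrp1 completed them. H2-D1 had 4848 CPM in the library labelled KO and 6179 CPM in that labelled WT. Mfge8, a bridging protein for dying cells, had 1178 CPM in the library labelled KO and 1677 CPM in that labelled WT. The 10 genes with the largest surplus summed to 67798 CPM in the library labelled KO and 61697 CPM in that labelled WT, led by Mmp12 and Chil3. Among them Anxa1, the annexin A1 gene, had 1695 CPM in the library labelled KO and 1166 CPM in that labelled WT, and Anpep, the aminopeptidase N gene, 2408 CPM in KO and 1941 CPM in WT.

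The HIN-200 genes, Ifi208 among them, lie together on chromosome 1 and share sequence, and 11 of them summed to 917 CPM (KO label) and 806 CPM (WT label) at 24 h, a ratio of 1.14 (1.12 to 1.16). At 12 h their ratio was 0.890 (0.878 to 0.902).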
